A study of Homo sapiens with 6 samples.

Results

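RUNX1, RUNX2 and RUNX3, the 3 genes of the RUNX transcription factor family, and CBFB, the gene of their common partner, were followed across RNA-seq libraries of KO52 cells. These 4 genes were taken by name out of 60612 gene IDs per library. All 4 passed the filter on low counts, which left 15395 genes for testing. KO52 is an established acute myeloid leukemia (AML) line, and the labels give its genotype in every group as CEBPA double mutant. All cells carried a doxycycline-inducible lentiviral vector, and per the study's methods they were given doxycycline and sorted for GFP. The groups differ in what the vector encoded, a dominant negative peptide against C/EBP proteins (dnCEBP), another against FOS and its AP-1 partners (dnFOS), or no peptide (EV, empty vector), with 2 libraries in each of these 3 groups. Each peptide pairs with many proteins of its family and keeps them off DNA, so the comparisons with EV ask how RUNX and CBFB transcripts respond when C/EBP or AP-1 binding is blocked. The level of the peptides was not measured here. Whether the 2 libraries of a group came from separate cultures is not stated, so p-values measure only the spread between these libraries, which may be technical. For each gene, edgeR draws its estimate of this spread toward that of the other genes tested. Standard errors, intervals and p-values therefore borrow precision from those genes.

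The libraries held between 9862994 and 27663179 counts, and the dnFOS libraries were the shallowest, dnFOS replicate 2 most of all. The log2 values of replicates correlated across genes with r of 0.981 to 0.987, and genes are not independent replicates. The 8 myeloid progenitor markers examined, among them PTPRC, CD34 and CD33, were all tested and summed to between 1255 and 1459 CPM (counts scaled to library size) in every library. Single markers differed more than this sum. In dnFOS against EV, 3 were called lower and 1 higher, 50% of them beside 15.0% of all genes tested. PTPRC (log2 fold change -0.33, edgeR adjusted p = 0.00663), ANPEP (-0.58, adjusted p = 4.36e-05) and MPO were lower, and CEBPA was higher (0.30, adjusted p = 0.0145). In dnCEBP against EV, MPO and ANPEP (-0.37, edgeR adjusted p = 0.0254) were lower, 25% beside 1.07% of all genes. The 5 osteoblast markers summed to at most 0.370 CPM and the 4 B cell markers to at most 1.93 CPM. Of the 4 epithelial markers EPCAM, KRT8 and KRT18 were tested and CDH1 had 0 counts, and their sum was 72.3 to 87.6 CPM in EV, 78.3 to 78.8 CPM in dnCEBP and 67.3 to 71.6 CPM in dnFOS. The keratin genes KRT18 (log2 fold change -0.43, edgeR adjusted p = 0.0157) and KRT8 (-0.80, adjusted p = 0.00499) were lower in dnFOS than in EV. EPCAM was not called and its value went the other way (0.21, edgeR adjusted p = 0.302).

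RUNX proteins bind DNA through their Runt domain. CBFB encodes a subunit that makes no specific contact with DNA itself, but pairs with each RUNX protein, raises its affinity for DNA and protects it from degradation. RUNX1 is needed for the first blood stem cells and for platelet and lymphocyte formation, RUNX2 directs bone formation, and RUNX3 acts in T cells and sensory neurons. RUNX1 and CBFB are both recurrently mutated or fused in AML, and RUNX proteins often share regulatory elements with C/EBP, AP-1, ETS and GATA factors.

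In GENCODE release 29 on GRCh38, RUNX1 (ENSG00000159216) lies at chr21:34787801-36004667 on the minus strand and RUNX2 (ENSG00000124813) at chr6:45328157-45664349 on the plus strand. RUNX3 (ENSG00000020633) lies at chr1:24899511-24965121 on the minus strand, and CBFB (ENSG00000067955) at chr16:67029116-67101058 on the plus strand. The annotation gives RUNX1 17 transcripts with 15 different starts, RUNX2 13 with 11, RUNX3 5 with 5 and CBFB 9 with 9. No exon base of the 4 genes is shared with an exon of another gene in this annotation. The counts are per gene, so they cannot separate transcripts that begin at different promoters.

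Promoter windows of 300 bases (250 before to 50 after a start) were available from RefSeq on GRCh38.p14 for 1 start of RUNX1, 2 of RUNX2 and 2 of RUNX3. They were searched on both strands for the RUNX motif TGTGGT, whose reverse complement is ACCACA, for the AP-1 motif TGANTCA and for the C/EBP motif TTGCNNAA. Of 35116 windows of this length in RefSeq, 13.1% held a RUNX match, 7.71% an AP-1 match and 10.5% a C/EBP match. The window at the upstream start of RUNX2 held 4 RUNX matches, 1 AP-1 match and 1 C/EBP match, and that at the upstream start of RUNX3 held 2 RUNX matches. No match to the 3 motifs was found in the windows at the RUNX1 start (chromosome 21, base 34888699) and at the downstream starts of RUNX2 and RUNX3. Matches are letters in a window and do not show that a factor binds there, nor does their absence show that none binds the gene. By ChIP-seq in KO52 cells, the study reported C/EBPα, RUNX1 and FOS at the RUNX1 gene, with several sites in common.

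The longest run of bases shared by the upstream windows of RUNX2 and RUNX3 was 18 bases long and held 2 RUNX matches. It is shown because the letters are common to both upstream windows, with the shared run in capitals and each sequence read along its gene's strand. The 30 bases shown lie at chr6:45328338-45328367 in RUNX2, just after the start, and at chr1:24965120-24965149 in RUNX3, before the start.
RUNX2: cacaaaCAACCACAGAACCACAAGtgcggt
RUNX3: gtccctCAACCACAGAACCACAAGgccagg

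The AP-1 and C/EBP matches at the upstream start of RUNX2 are shown because these are the motifs of the families that the peptides block, with the match in capitals. The first lies at chr6:45328080-45328109 and the second at chr6:45328264-45328293, both on the plus strand and before the start.
AP-1: atcctcaTGAGTCAcaaaaattaaaaagct
C/EBP: agtaatagtgcTTGCAAAAaaaaggagttt

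RUNX1 and CBFB transcripts were higher in dnFOS than in EV, by 1.42-fold and 1.45-fold, whereas RUNX2 and RUNX3 did not pass the test. None of the 4 genes was called in dnCEBP. The plot of CPM by library shows all values, on library sizes scaled by TMM. In these bulk libraries, more RNA per cell and more cells that express a gene cannot be told apart.

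**Figure D1:**
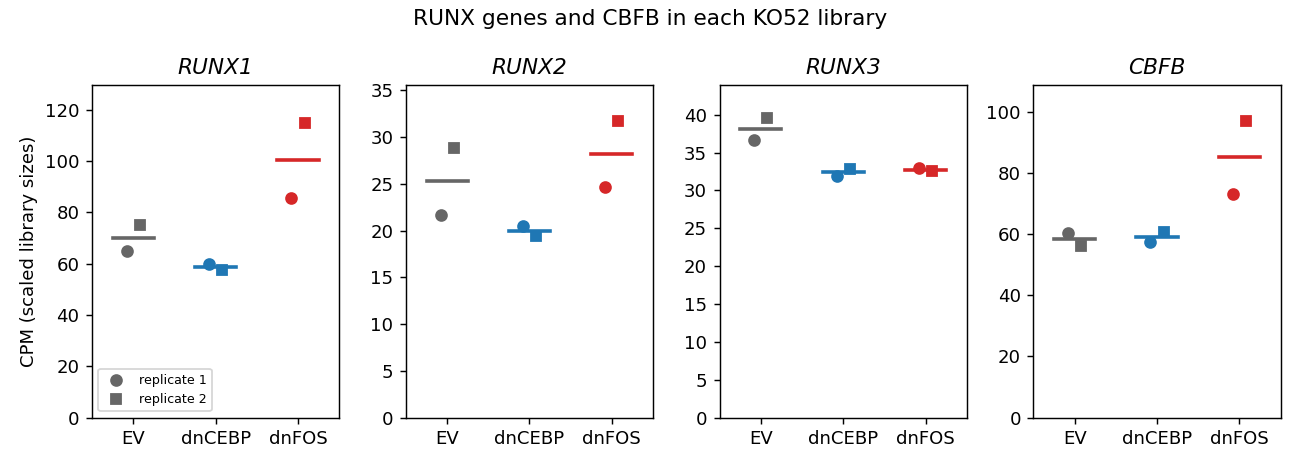
CPM of RUNX1, RUNX2, RUNX3 and CBFB (vertical axes from 0, a scale for each gene) in each library of EV, dnCEBP and dnFOS, with circles for replicate 1, squares for replicate 2 and a line at the mean of 2 libraries. For RUNX1 and CBFB both dnFOS libraries sit above the other 4, with dnFOS replicate 2 the highest at 115 and 96.8 CPM.

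For RUNX1, the family member most often mutated in AML, the EV libraries gave 1553 and 1643 counts, the dnCEBP libraries 1621 and 1193 and the dnFOS libraries 1313 and 1190. On scaled library sizes EV reached 65.2 and 75.2 CPM, dnCEBP 60.0 and 57.6 CPM and dnFOS 85.5 and 115 CPM. Both dnFOS libraries were above all others and both dnCEBP libraries below all others. The share of all genes tested whose libraries separate in such a way is not given here. For RUNX1 and for the other genes below, such orders of libraries are therefore descriptions only. The mean level was 70.2 ± 7.12 CPM in EV, 58.8 ± 1.69 CPM in dnCEBP and 100.3 ± 20.9 CPM in dnFOS (SD, n = 2). The log2 fold change of RUNX1 in dnFOS over EV was 0.51 ± 0.11 (SE; 95% interval 0.28 to 0.74), a rise of 1.42-fold that passed edgeR's quasi-likelihood test with a Benjamini-Hochberg adjusted p of 0.00287 over all 15395 genes. RUNX1 and CBFB were the 2 of the 4 genes called in this comparison, both higher, where 15.0% of all genes tested were called, 7.24% higher and 7.76% lower.

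The size of the RUNX1 difference depended on the shallowest library. The 2 dnFOS libraries lay further apart than those of any other group. Without dnFOS replicate 2 the log2 difference from EV was 0.29 with an edgeR adjusted p of 0.116, and without dnFOS replicate 1 it was 0.71 with an adjusted p of 6.82e-07. RUNX1 was called in 12 of 13 alternative settings, with adjusted p from 6.82e-07 to 0.116.

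In dnCEBP the log2 fold change of RUNX1 from EV was -0.25 ± 0.11 (SE; 95% interval -0.48 to -0.03). The edgeR adjusted p was 0.352 (unadjusted 0.0296) in a comparison in which 1.07% of all genes were called, 0.624% higher and 0.448% lower, and RUNX1 was not called under any of 13 alternatives. Of the 15395 genes tested, 1835 had an unadjusted edgeR p under 0.05 in this comparison. That count is also the background for the unadjusted p of RUNX2 and RUNX3 below. The size of the RUNX1 difference depended on the EV libraries, at -0.36 without EV replicate 1 and -0.15 without EV replicate 2. Set directly against dnCEBP, dnFOS had RUNX1 levels higher by 0.76 ± 0.11 on the log2 scale (SE; 95% interval 0.53 to 0.99), a fold of 1.70 with an edgeR adjusted p of 3.53e-05. This difference was called in 13 of 13 alternatives, with log2 values from 0.54 to 0.97. RUNX1, RUNX2 and CBFB, 3 of the 4 genes, were called higher in dnFOS than in dnCEBP, where 14.7% of all genes were called, 6.83% higher and 7.84% lower. The comparisons of dnFOS and of dnCEBP with EV share the EV libraries.

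CBFB received 1436 and 1228 counts in the EV libraries, 1550 and 1259 with dnCEBP and 1124 and 1001 with dnFOS. After scaling this came to 60.2 and 56.2 CPM in EV, 57.4 and 60.8 CPM in dnCEBP, and 73.2 and 96.8 CPM in dnFOS. The EV and dnCEBP libraries overlapped, and both dnFOS libraries stood above them. The mean was 58.2 ± 2.85 CPM in EV, 59.1 ± 2.42 CPM in dnCEBP and 85.0 ± 16.7 CPM in dnFOS (SD, n = 2). The log2 fold change of CBFB in dnFOS over EV was 0.54 ± 0.11 (SE; 95% interval 0.32 to 0.75), a rise of 1.45-fold with an edgeR adjusted p of 0.000802.

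As for RUNX1, dnFOS replicate 2 carried much of the CBFB difference. Without that library it was 0.33 on the log2 scale with an edgeR adjusted p of 0.0617, and it was called in the other 12 of 13 alternatives. The longest annotated transcript of CBFB was 40.6% G and C, the lowest share of the 4 genes, and that of RUNX3 57.2%, the highest. With a trend on GC content and length removed from each library, the dnFOS difference of CBFB was 0.39 with an edgeR adjusted p of 0.00228. Between dnCEBP and EV the CBFB difference was 0.02 ± 0.10 (log2, SE; 95% interval -0.19 to 0.23; edgeR adjusted p = 0.968). CBFB was higher in dnFOS than in dnCEBP by 0.52 ± 0.11 (log2, SE; 95% interval 0.30 to 0.73; edgeR adjusted p = 0.000932), and by 0.31 with an adjusted p of 0.0750 without dnFOS replicate 2.

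**Figure D2:**
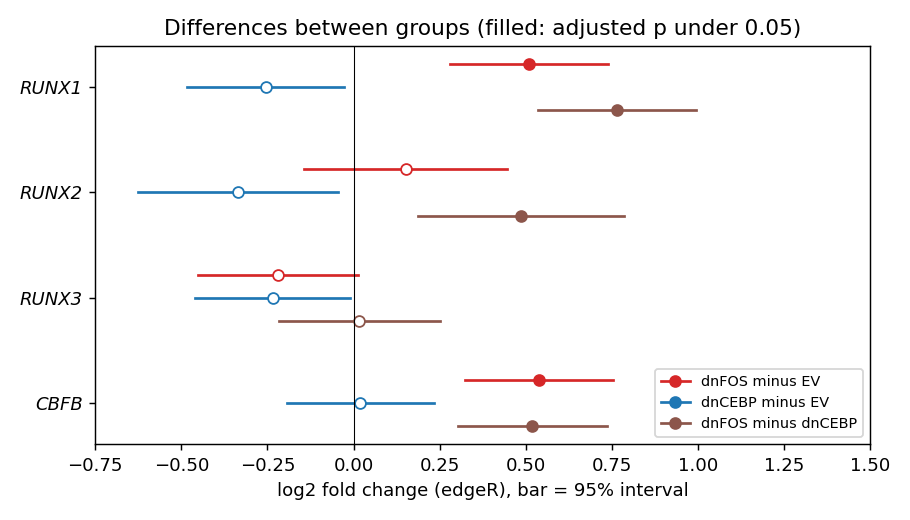
Fitted log2 fold changes (points) with 95% intervals (bars) of the 4 genes in the 3 comparisons, with filled points for a Benjamini-Hochberg adjusted p under 0.05 in edgeR. RUNX1 and CBFB are filled in both comparisons of dnFOS, RUNX2 in dnFOS minus dnCEBP and no gene in dnCEBP minus EV.

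RUNX2, best known as the regulator of bone formation, was the least abundant of the 4 genes. Its counts were 517 and 629 in the EV libraries, 555 and 402 with dnCEBP and 379 and 328 with dnFOS. The scaled level was 21.7 and 28.8 CPM in EV, 20.5 and 19.4 CPM in dnCEBP, and 24.7 and 31.7 CPM in dnFOS. The EV and dnFOS libraries overlapped, with dnCEBP below both. RUNX2 was not called against EV in dnFOS (log2 fold change 0.15 ± 0.14, SE; 95% interval -0.14 to 0.45; edgeR adjusted p = 0.539) or in dnCEBP (-0.34 ± 0.14; 95% interval -0.62 to -0.05; adjusted p = 0.332, unadjusted 0.0247). The dnFOS value turned to -0.04 without EV replicate 1 and to -0.03 without dnFOS replicate 2. Leaving out EV replicate 1 gave a dnCEBP value of -0.53, and leaving out EV replicate 2 gave -0.12.

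Between the peptides, RUNX2 was higher in dnFOS than in dnCEBP by 0.49 ± 0.15 (log2, SE; 95% interval 0.19 to 0.78), a fold of 1.40 with an edgeR adjusted p of 0.0226. The call was lost in 3 of 13 alternatives. Its edgeR adjusted p was 0.0652 without dnCEBP replicate 1 (log2 0.53), 0.110 without dnCEBP replicate 2 (0.45) and 0.296 without dnFOS replicate 2 (0.30). Bone genes that RUNX2 is known to drive were almost absent from these cells. Of 7 such genes only SPP1, the gene of osteopontin, was tested, and IBSP (bone sialoprotein) and MMP13 (collagenase 3) had 0 counts in every library. A count of 0 allows up to 0.304 CPM in the shallowest library at 3 counts.

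RUNX3, a regulator of cytotoxic T cells, received 875 and 864 counts in the EV libraries, 863 and 681 with dnCEBP and 506 and 337 with dnFOS. In scaled CPM, EV had 36.7 and 39.6, dnCEBP 31.9 and 32.9, and dnFOS 32.9 and 32.6. Both EV libraries were above the other 4, and the peptide groups overlapped. RUNX3 did not pass the test against EV in dnFOS (log2 fold change -0.22 ± 0.11, SE; 95% interval -0.45 to 0.01; edgeR adjusted p = 0.211), nor in dnCEBP (-0.24 ± 0.11; 95% interval -0.46 to -0.01; adjusted p = 0.392, unadjusted 0.0406). With the GC and length trend removed, the dnFOS value was -0.08. The difference between dnFOS and dnCEBP was 0.02 ± 0.11 (log2, SE; 95% interval -0.22 to 0.25; edgeR adjusted p = 0.946).

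**Figure D3:**
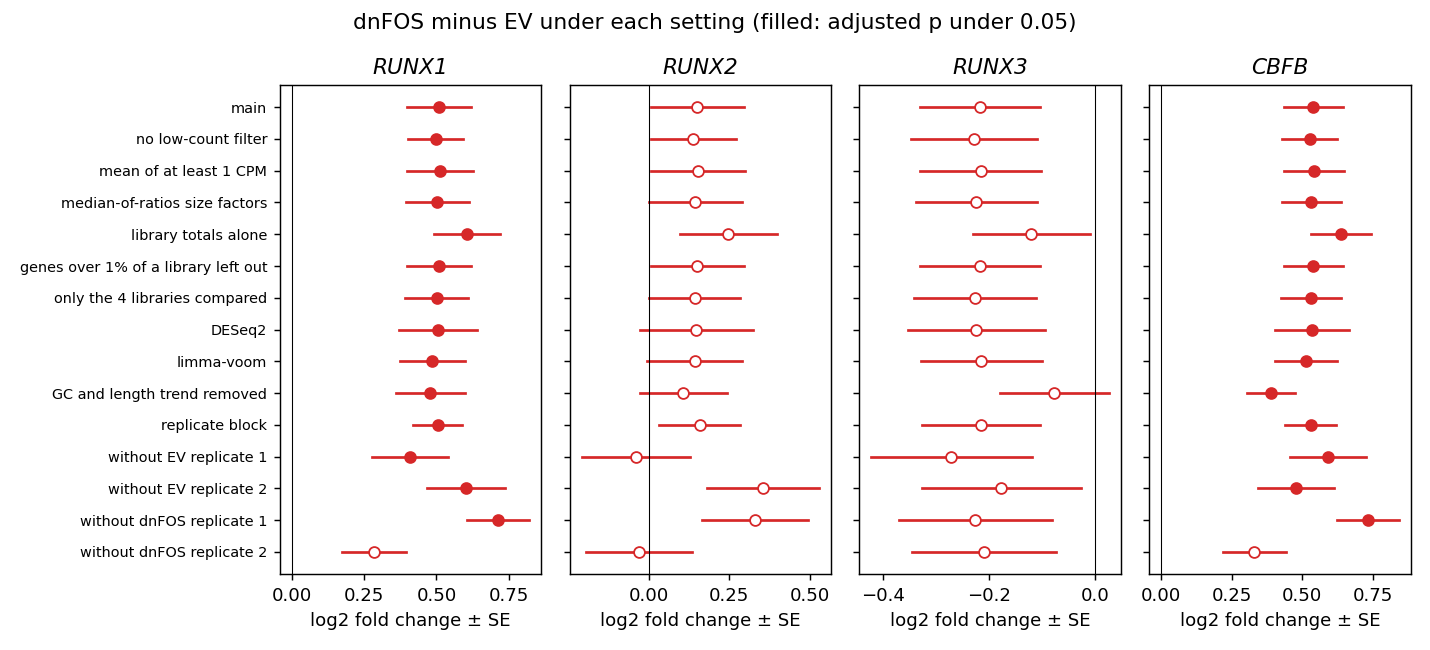
Log2 fold change of dnFOS minus EV (points, bars of 1 SE, a scale for each gene) for the 4 genes under each setting, filled where the adjusted p was under 0.05. RUNX1 and CBFB are filled in every row but the last, which leaves out dnFOS replicate 2, and RUNX2 and RUNX3 are open in every row.

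The balance among the 4 genes was examined within each library, where the scaling between libraries cancels. The GC and length trend does not cancel between genes, and it was not removed from the ratios and shares given here. For RUNX3 this trend was 0.102 and 0.048 in EV and -0.032 and -0.107 in dnFOS (log2). With it removed, the log2 differences of dnFOS from EV were 0.48 for RUNX1 and -0.08 for RUNX3, beside 0.51 and -0.22. RUNX1 counts per RUNX3 count were 1.77 and 1.90 for EV, 1.88 and 1.75 for dnCEBP and 2.59 and 3.53 for dnFOS. Both dnFOS libraries were above the other 4, which lay close together. RUNX1 counts per CBFB count were 1.08 and 1.34 for EV, 1.05 and 0.948 for dnCEBP and 1.17 and 1.19 for dnFOS, so dnFOS fell between the EV libraries. RUNX1 counts per RUNX2 count were 3.004 and 2.61 for EV, 2.92 and 2.97 for dnCEBP and 3.46 and 3.63 for dnFOS, where both libraries were again the highest. With 2 libraries against 2, an exact two-sided permutation test of a ratio cannot go below p = 0.333, so these are descriptions.

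Levels of different genes were compared per length, as CPM divided by the kilobases of annotated exon (RPKM). In EV this was 14.1 ± 0.689 for CBFB, 8.43 ± 0.445 for RUNX3, 4.51 ± 0.457 for RUNX1 and 3.08 ± 0.613 for RUNX2 (SD, n = 2). The order was the same in the group means of dnCEBP and dnFOS. In dnFOS replicate 2, however, RUNX1 at 7.39 RPKM lay above RUNX3 at 7.20 RPKM, and the dnFOS means of 6.44 ± 1.34 for RUNX1 and 7.24 ± 0.0573 for RUNX3 did not differ beyond their spread. The order of RUNX1 and RUNX3 depends on the length used. Per length of the longest annotated transcript, RUNX1 had 9.65, 8.08 and 13.8 in EV, dnCEBP and dnFOS, above RUNX3 in every group.

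Of the RUNX reads per kilobase of exon, RUNX1 made up 28.0% and 28.3% for EV, 28.7% and 27.7% for dnCEBP and 34.8% and 40.0% for dnFOS. The share of RUNX3 was 54.3% and 51.2% for EV, 52.6% and 54.5% for dnCEBP and 46.1% and 39.0% for dnFOS. RUNX1 thus took a larger and RUNX3 a smaller share in both dnFOS libraries than in any other library, while the RUNX2 share lay between 17.7% and 21.0% throughout. Per length of the longest transcript the RUNX1 share was 42.1% to 43.2% in EV and dnCEBP, and 49.9% and 55.1% in dnFOS. The 3 RUNX genes summed, per unit of CBFB, to 1.02 and 1.26 for EV, 0.966 and 0.906 for dnCEBP and 0.891 and 0.788 for dnFOS. With the GC and length trend left in, each peptide group lay below both EV libraries by this measure of RNA. In log2, that trend was -0.068 for CBFB and 0.102 for RUNX3 in EV replicate 1, which raises the measure there. For dnCEBP replicate 2 the values were 0.063 and -0.057, which lowers it. The signs were the same in both dnFOS libraries. By contrast, dnCEBP replicate 1 (-0.058 and 0.045) was close to EV replicate 2 (-0.079 and 0.048). Whether this order of groups holds with the trend removed was not tested. The measure says nothing of the proteins.

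**Figure D4:**
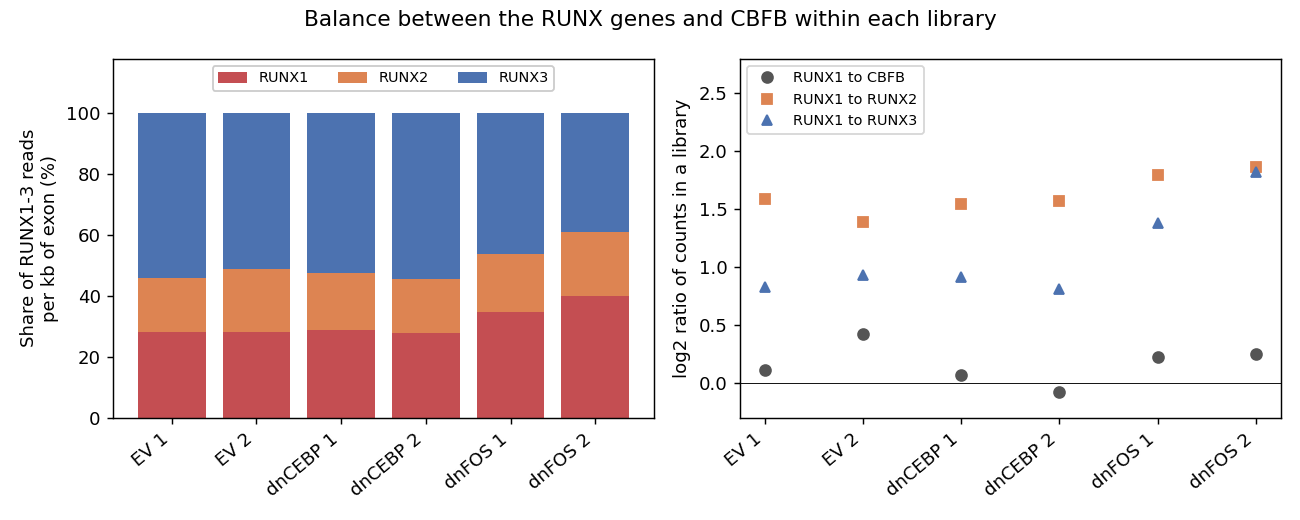
Left, the share (%) of RUNX1, RUNX2 and RUNX3 in their summed reads per kilobase of exon in each library, as stacked bars. Right, the log2 ratio of RUNX1 counts to those of CBFB, RUNX2 and RUNX3 in the same libraries (points), where RUNX1 to RUNX3 is highest in the 2 dnFOS libraries.

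Across the 6 libraries, Pearson's r of RUNX1 with the other members was 0.894 for CBFB, 0.899 for RUNX2 and -0.083 for RUNX3, on log2 CPM. These are descriptions over 6 libraries in 3 groups that share their depth and scaling, and they are given without p. Among 8326 genes with a mean of at least 10 CPM, 401 had r above 0.9 with RUNX1 and 658 with CBFB, against 99 with RUNX2 and 41 with RUNX3. An r below -0.9 was found for 532 genes with RUNX1, 491 with CBFB, 111 with RUNX2 and 64 with RUNX3. The genes closest to RUNX1 were UBE2K, a ubiquitin-conjugating enzyme (r = 0.997), HIPK1, a nuclear kinase, and LYST, a regulator of lysosomal trafficking (both r = 0.996), followed by the poly(A) polymerase PAPOLA and the RNA-binding HNRNPA3. UBE2K alone of these 5 was called in dnFOS against EV (log2 fold change 0.44, adjusted p = 0.0105 by edgeR). The closest to CBFB were LIN7C (r = 0.998), DCUN1D1 and TMEM170B, all called higher in dnFOS by 0.46 to 0.76 on the log2 scale (edgeR adjusted p from 0.000128 to 0.00314). Genes picked for likeness to RUNX1 or CBFB over these same libraries tend to be higher in dnFOS by selection. Their calls are no separate evidence. SF1, a splicing factor (r = 0.994), FBXO30 and RHBDD1 were closest to RUNX2, and TPCN1 (r = 0.967), FNDC3B and SLC25A13 to RUNX3. The value for TPCN1 was 0.902 without EV replicate 2.

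Genes that work with RUNX proteins were then read from lists, and the share of all genes called (15.0% in dnFOS and 1.07% in dnCEBP against EV, and 14.7% in dnFOS against dnCEBP) is the background for each count. Of 13 corepressors, 10 were tested. HDAC3, a histone deacetylase, was lower in dnFOS (log2 fold change -0.40 ± 0.13, SE; adjusted p = 0.0311 by edgeR) and no other was called. RUNX1T1, the gene of ETO, and TLE2 had 0 counts in every library, and TLE1 at most 2. The HDAC3 call was lost in 4 of 13 alternatives, with library totals and without EV replicate 1, EV replicate 2 or dnFOS replicate 2. No corepressor was called in dnCEBP against EV or in dnFOS against dnCEBP.

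Of 12 coactivators and modifying enzymes, 10 were tested and 4 were called in dnFOS, 2 in each direction. PRMT6, an arginine methyltransferase, was higher in dnFOS by 0.72 ± 0.15 (log2, SE; edgeR adjusted p = 0.00104) and HIPK2, a kinase that phosphorylates RUNX1, by 0.57 ± 0.19 (adjusted p = 0.0383). BRPF1, a subunit of the KAT6 acetyltransferase complexes, was lower (log2 -0.50 ± 0.12; adjusted p = 0.00417 by edgeR), as was PRMT1, which methylates RUNX1 (-0.39 ± 0.09; adjusted p = 0.00396). Without dnFOS replicate 2 none of the 4 was called, and without EV replicate 1 only PRMT1 and PRMT6 of these were. The HIPK2 call was also lost in DESeq2 and limma-voom. YAP1 had 0 counts in every library. In dnFOS against dnCEBP, PRMT6 was higher (0.49 ± 0.14, edgeR adjusted p = 0.0206) and PRMT1 lower (-0.32 ± 0.09, adjusted p = 0.0170), both lost without dnFOS replicate 2, PRMT6 also without dnCEBP replicate 2 and PRMT1 without dnCEBP replicate 1 or with library totals.

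DNA-binding partners of RUNX1 were all expressed, with 10 of 10 tested, and 3 were lower in dnFOS. GATA1, the master factor of red cell and platelet precursors, had 7.64 and 6.13 CPM in EV, 7.62 and 8.35 CPM in dnCEBP, and 2.34 and 2.90 CPM in dnFOS. Its log2 fold change in dnFOS over EV was -1.41 ± 0.25 (SE; adjusted p = 0.000214 by edgeR), and that of LYL1, a factor of stem and progenitor cells, -0.75 ± 0.11 (adjusted p = 5.16e-05). Both were called in 13 of 13 alternatives. GATA2, a stem cell factor, was close to the threshold (-0.26 ± 0.09; edgeR adjusted p = 0.0493) and was called in 5 of 13. The 4 markers of megakaryocytes, the platelet precursors, were lower in sum in dnFOS, but this sum is almost all ITGA2B. They came to between 183 and 195 CPM in EV, 201 and 238 CPM in dnCEBP and 102 and 113 CPM in dnFOS, while PF4 had at most 7 counts. PPBP, the only other of these markers tested, went the other way and was not called (log2 fold change 0.73, edgeR adjusted p = 0.202). The part of these markers in the result was not tested.

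Between the peptides, 4 of the 10 partners were called. ETS1, which binds DNA cooperatively with RUNX1, was higher in dnFOS than in dnCEBP by 0.71 ± 0.18 (log2, SE; edgeR adjusted p = 0.00808). GATA1 (-1.62 ± 0.24), LYL1 (-0.46 ± 0.11) and TAL1 (-0.27 ± 0.08) were lower. The calls of ETS1 and LYL1 were lost without dnCEBP replicate 1 or dnFOS replicate 2, and that of TAL1 with library totals and without either dnCEBP library or dnFOS replicate 2.

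**Figure D5:**
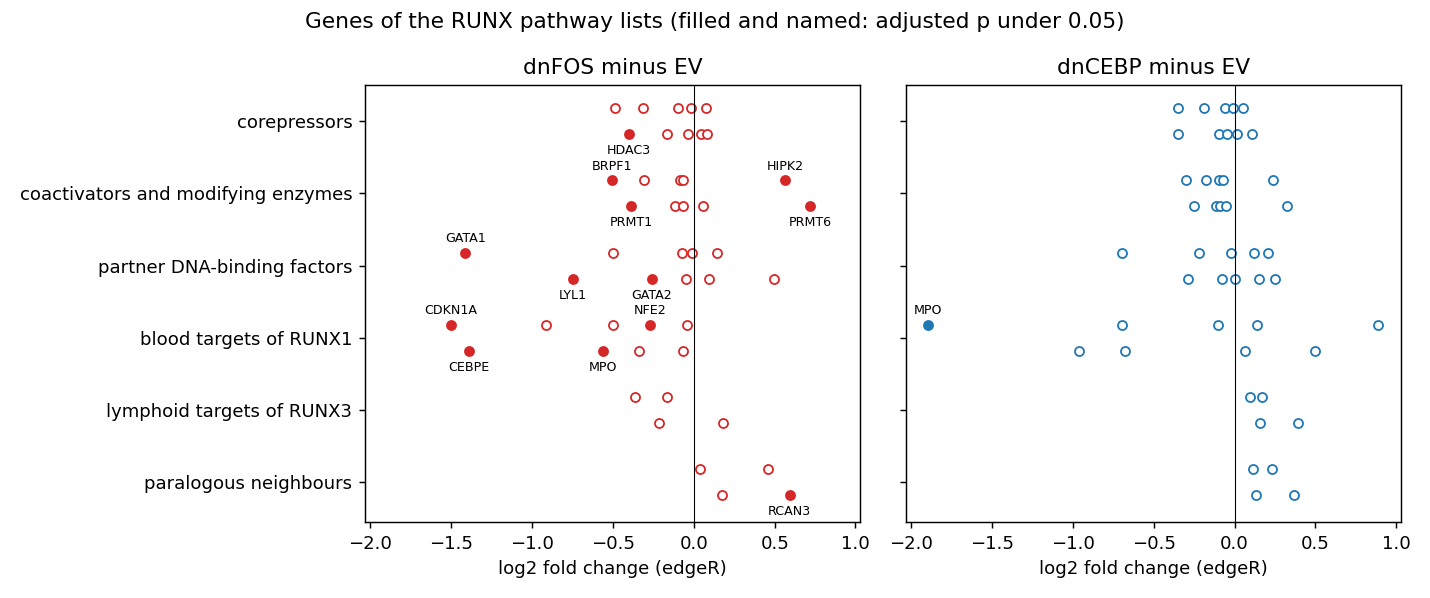
Fitted log2 fold changes of dnFOS minus EV (left) and dnCEBP minus EV (right) for the tested genes of 6 lists around the RUNX proteins, 1 point a gene, filled and named where the edgeR adjusted p was under 0.05. In dnFOS the 4 filled blood targets of RUNX1 lie below 0, and in dnCEBP the filled point is MPO.

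Of 15 blood genes known as targets of RUNX1, 9 were tested, and 4 were called in dnFOS, all lower. The median log2 fold change of the 9 was -0.50, beside 0.004 over all genes tested. MPO, the peroxidase of neutrophil granules, had 239 and 194 CPM in EV, 63.5 and 53.0 CPM in dnCEBP, and 153 and 140.0 CPM in dnFOS. Its log2 fold change from EV was -0.56 ± 0.10 in dnFOS (SE; edgeR adjusted p = 0.000273) and -1.89 ± 0.10 in dnCEBP (adjusted p = 5.03e-13), the only call of the list there. CEBPE, a factor of late granulocyte maturation, had -1.39 ± 0.33 in dnFOS (edgeR adjusted p = 0.00396) and was called in 13 of 13 alternatives. The study also reported CEBPE as lower with dnFOS in KO52 cells, and as a gene bound by FOS and C/EBPα as well as RUNX1. CDKN1A, the cell cycle inhibitor p21, had -1.50 ± 0.40 (adjusted p = 0.0104) and lost its call without dnFOS replicate 1. NFE2, needed for the release of platelets, was close to the threshold (-0.27 ± 0.09, adjusted p = 0.0496) and was called in 5 of 13. CSF2, IL3, MYL9 and ALOX12 had 0 counts in every library. The RUNX1 transcript was higher in the same dnFOS libraries in which these 4 targets were lower. Whether these differences are linked was not tested.

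Between dnFOS and dnCEBP, MPO was higher (log2 fold change 1.33 ± 0.10, SE; adjusted p = 2.10e-10 by edgeR). CDKN1A was lower (-2.01 ± 0.39, edgeR adjusted p = 0.000551), with 9 and 12 counts in dnFOS and 90 and 70 in dnCEBP.

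Of 6 lymphoid genes known as targets of RUNX3, 4 were tested and none was called against EV in either peptide group by edgeR. ITGAL, the alpha chain of the integrin LFA-1, was lower in dnFOS than in dnCEBP (log2 fold change -0.38 ± 0.09, SE; adjusted p = 0.00341 by edgeR), a call lost without dnCEBP replicate 1. CD8A had at most 3 counts and GZMB at most 2. The 8 T and NK cell markers examined summed to between 146 and 154 CPM in EV, 170 and 175 CPM in dnCEBP and 113 and 130.4 CPM in dnFOS. Most of this was CD3D, lower in dnFOS than in EV (log2 fold change -0.28, edgeR adjusted p = 0.0287), and NKG7, a gene of cytotoxic granules, was lower as well (-0.39, adjusted p = 0.0342). CD3E, CD3G and CD8A had at most 7 counts in any library. Their part in the RUNX3 values was not tested.

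The RUNX genes lie beside paralogous RCAN and CLIC genes on their 3 chromosomes, and 4 of these 6 neighbours were tested. RCAN3, a calcineurin regulator encoded near RUNX3, rose in dnFOS over EV by 0.59 ± 0.15 (log2, SE; edgeR adjusted p = 0.00752). That call was lost without EV replicate 1 or dnFOS replicate 2. RCAN3 was also higher in dnFOS than in dnCEBP (0.46 ± 0.15, edgeR adjusted p = 0.0371), a call lost in DESeq2, in limma-voom and without either dnCEBP library or dnFOS replicate 2, and no other neighbour was called. RCAN2 and CLIC5, the neighbours of RUNX2, had at most 1 count in any library. The antisense gene RUNX2-AS1 had 0 counts in every library, and whether the counting used strand is not given in the sources used here.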

How the data were processed

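RNA was sequenced in 6 KO52 libraries, 2 per group, from total RNA depleted of ribosomal RNA, as paired-end reads. The authors deposited a table of raw, whole-number counts for each library, with no normalization. Per the submitters' processing notes, Trimmomatic, HISAT2, featureCounts and Subread were used with build hg38. Their versions and settings, the annotation, the use of strand and the handling of reads that match several genes are not given in the sources used here. Reads shared by similar genes could have been dropped or split.

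Gene IDs were matched to GENCODE release 29, where 58394 of 60612 matched. The test was edgeR's quasi-likelihood test (version 4.0.16, R 4.3.3), two-sided, with a mean per group over all 6 libraries. Genes passed filterByExpr at a minimum count of 10 (15395 of 27870 with a count), TMM factors ran from 0.956 to 1.054, and the common biological coefficient of variation was 0.0961. p-values were adjusted by Benjamini-Hochberg over all genes tested, and a gene is called below 0.05. Each standard error is the log2 fold change over the root of its F statistic. Library sizes behind CPM are TMM-scaled, and log2 CPM has a prior count of 2. At 3 counts the floor was 0.108 to 0.304 CPM, and such limits cover counting error only. RPKM values use the union of annotated exons or, as an alternative, the longest transcript.

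The alternatives were every gene with a count in place of the filter, a minimum mean of 1 CPM, size factors by median of ratios, library totals, 5 genes over 1% of a library left out, only the 4 libraries compared, DESeq2 1.42.0, limma-voom (limma 3.58.1), a smooth GC and length trend removed per library (15222 of 15395 genes had both), the replicate number as a block, and each library left out. Ranges over 13 alternatives leave out the block. Lists and module genes under these alternatives, lists without single libraries, likeness under library totals or without single libraries, and RUNX shares by longest transcript were added after seeing the data.

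The 4 genes and all gene lists were chosen with earlier results of these data known, so counts over lists are descriptions. Named from a list were called genes, at most 5 by size, and genes at or under 3 counts throughout. A result that this rule would name is not reported here. PTPRC, CD34, CD33, ANPEP, CEBPA, SPP1, PF4, PPBP, ITGA2B, CD3D, CD3E, CD3G, NKG7, EPCAM, KRT8, KRT18 and CDH1 are named outside this rule, after their values were seen. Likeness is Pearson's r of log2 CPM, with the 5 highest genes for RUNX1 and 3 for the others. From the RUNX module the 5 largest rises and falls with a mean of at least 1 CPM were named. The scripts were tested on simulated data.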

Additional observations from a re-analysis of the deposited data

How the results depend on the processing

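The 4 genes in the 3 comparisons gave 12 differences, each recomputed under 13 alternatives and the replicate block: 153 of these values kept their direction and side of the threshold, 6 lost the call and 9 changed sign. The lost calls all came from leaving out a library. Over single libraries left out, the log2 fold change in dnFOS against EV ran from 0.29 to 0.71 for RUNX1, -0.04 to 0.36 for RUNX2 and 0.33 to 0.73 for CBFB. In dnFOS against dnCEBP it ran from 0.30 to 0.67 for RUNX2, -0.0043 to 0.0375 for RUNX3 and 0.31 to 0.71 for CBFB, and in dnCEBP against EV from -0.36 to -0.15 for RUNX1, -0.53 to -0.12 for RUNX2 and -0.0355 to 0.0706 for CBFB. The changes of sign were all in uncalled values. RUNX3 in dnFOS against dnCEBP was -0.0054 without a low-count filter, -0.0012 with the 4 libraries compared alone and -0.0043 without dnCEBP replicate 1. CBFB in dnCEBP against EV was -0.0036 with library totals, -0.0562 with the GC and length trend removed, -0.0355 without EV replicate 2 and -0.0222 without dnCEBP replicate 2. RUNX2 in dnFOS against EV was -0.0396 without EV replicate 1 and -0.0308 without dnFOS replicate 2. The cause was not tested.

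The count of genes called in dnCEBP against EV was 165, and 255 without the filter, 297 with 4 libraries, 266 with the trend removed and 488 with a replicate block. Leaving out libraries it ran from 33 to 257, and from 972 to 2330 in dnFOS against EV and 1182 to 2185 in dnFOS against dnCEBP. With library totals alone the median over all genes in dnFOS against EV went from 0.004 to 0.10 on the log2 scale, and the split of calls went from 1115 higher and 1194 lower to 1906 and 676. In dnFOS against dnCEBP the median was 0.14, and the split went from 1052 and 1207 to 2100 and 716. The RUNX1 difference from EV was then 0.61 and that of CBFB 0.64, beside 0.51 and 0.54 with TMM. With the trend removed the dnFOS split was 732 and 1323. Same-numbered replicates did not deviate together (correlations 0.017 to 0.088), and with the replicate number as a block RUNX1 was 0.50 and CBFB 0.53 in dnFOS against EV, no call of the 4 genes changed, and 3172 and 3013 genes were called in the comparisons of dnFOS.

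With 2 libraries per group and 3 residual degrees of freedom, the precision of each difference is that of its interval. Each interval rests on a spread estimated in part from the other genes tested. Of the 6 lost calls of the 4 genes, 4 came from leaving out the shallowest library, dnFOS replicate 2, and 2, both of RUNX2 in dnFOS against dnCEBP, from leaving out either dnCEBP library.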

Other observations

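The study's network assigned 478 genes to a RUNX module from patient cells, of which 415 were tested in these libraries, and none of RUNX1, RUNX2, RUNX3 and CBFB stands in it. In dnFOS 38 of the 415 were called higher and 32 lower than in EV by edgeR, which is 16.9% beside 15.0% of all genes. The share was 17.9% of the 263 tested genes that had a RUNX1 ChIP-seq peak in the study and 15.1% of the 152 that had none. In dnCEBP 7 genes were called, 4 higher and 3 lower, all with such a peak, which is 1.69% of the 415 beside 1.07% of all genes.

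The largest rises of the module in dnFOS were MARCKS, an actin-regulating substrate of protein kinase C (6.00 and 7.60 CPM in EV, 16.1 and 23.0 CPM in dnFOS), MAP10, TNFRSF21, GATM and VHL. The log2 fold change was 1.51 for MARCKS, 0.70 for GATM, a creatine synthesis enzyme, and 0.67 for VHL, which targets hypoxia factors for degradation. These 3 were called in 13 of 13 alternatives, and MAP10 and TNFRSF21 in 8, losing the call in DESeq2 and whenever any of the 4 libraries compared was left out. The largest falls were AGRN (-1.38), ADAMTS14 (-1.04), RGCC (-0.99), FCER1G (-0.88) and CXCR4 (-0.82), all log2 values. CXCR4, the receptor that holds blood progenitors in the marrow, had 43.8 and 37.8 CPM in EV, 28.1 and 26.7 CPM in dnCEBP, and 24.7 and 21.5 CPM in dnFOS, and was lower in dnCEBP too (-0.57; edgeR adjusted p = 0.00926, lost without EV replicate 1 and without dnCEBP replicate 2). In dnFOS CXCR4 was called in 13 of 13 alternatives, AGRN and ADAMTS14 in 12, FCER1G in 11 and RGCC in 9. AGRN lost its call without dnFOS replicate 2, ADAMTS14 without dnFOS replicate 1, FCER1G without EV replicate 2 or dnFOS replicate 2, and RGCC without EV replicate 2 or dnFOS replicate 1 and in DESeq2 and limma-voom.

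In dnCEBP the module genes called higher were ANGPT1, a ligand of the receptor TIE2 (199 and 199.6 CPM in EV, 282 and 314 CPM in dnCEBP; log2 fold change 0.58), ZNF175 (0.53), B3GNT2 (0.42) and IQGAP2 (0.38). ANGPT1 was called in 13 of 13 alternatives. ZNF175 was called in 11 and lost its call without EV replicate 1 or dnCEBP replicate 2. B3GNT2 and IQGAP2 were called in 9, the first losing its call with library totals and when either EV library or dnCEBP replicate 2 was left out, the second when any of the 4 libraries compared was. STEAP3 (-0.55) was called lower, in 8 of 13, and lost its call in DESeq2 and when any of the 4 libraries compared was left out. EIF3C (-0.79) was called lower as well, but it has a near-identical copy, and how reads that match both were counted is not given in the sources used here, so its value is uncertain.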
